A study of Mus musculus with 2 samples.

Results

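The miR-101 genes of the mouse are Mir101a and Mir101b, a pair of microRNA genes on different chromosomes, and their levels were measured in the adrenal gland of young mice. The members were chosen by gene identifier in the GENCODE M21 annotation, which gave 2 of the 2202 miRNA genes counted. The choice was made with earlier results of these data known, since Mir101a had been selected on its ratio between the libraries, so that ratio is given as a description and is not tested. The samples were male B6CASTF1/J mice, an F1 hybrid, at 14 days of age, with no treatment and no engineered allele in the labels. They form 1 group of 2 microRNA-seq libraries, numbered replicates 2 and 1. Each library's biosample label names 3 males, and both biosamples share 1 donor record, and the labels leave it unsaid whether animals were pooled. The assay sequences short RNA, and a miRNA gene is counted as its hairpin, without separating the arms.

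MicroRNAs are cut from hairpin precursors by Drosha and Dicer, and 1 arm is loaded into an Argonaute protein. The seed, bases 2 to 8 of the mature miRNA, pairs with sites in the 3′ UTRs of messenger RNAs and lowers their stability and translation. The miR-101 family is best known as a regulator of Ezh2, the histone methyltransferase of Polycomb repressive complex 2 (PRC2), which places the repressive H3K27me3 mark. In the adrenal gland the cortex secretes steroid hormones, and chromaffin cells of the medulla secrete catecholamines.

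The mature sequences are shown first because the seeds, and the bases in which the copies differ, set which targets and which reads they share. RefSeq (GRCm38.p6) holds them as follows, with the seed in capitals.
mmu-miR-101a-3p: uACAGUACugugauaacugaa
mmu-miR-101b-3p: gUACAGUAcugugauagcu
mmu-miR-101a-5p: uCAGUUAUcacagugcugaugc
mmu-miR-101b-5p: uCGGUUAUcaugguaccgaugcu
mmu-miR-101c: aCAGUACUgugauaacuga

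The 3p arm, generally taken as the guide strand of the family, differs little between the genes. The RefSeq form of miR-101b-3p starts 1 base earlier, so the seeds of both overlap by 6 bases but are not the same 7 bases. Counted from 1 at the 5′ end of miR-101a-3p, the single substitution inside the shared part is A16G. The 5p arms differ more, in the seed as well.

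The hairpins come from the transcripts of the same annotation, with the mature arms in capitals.
Mir101a: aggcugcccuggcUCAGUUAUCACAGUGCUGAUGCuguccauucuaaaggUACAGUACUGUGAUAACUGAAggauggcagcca
Mir101b: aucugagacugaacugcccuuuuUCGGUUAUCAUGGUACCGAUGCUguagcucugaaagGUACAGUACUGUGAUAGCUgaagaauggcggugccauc

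Mir101a (ENSMUSG00000065451.1) has 83 bases and lies on the minus strand at chr4:101346945-101347027 on mm10. It falls in exon 2 of the 2 exons of E130102H24Rik-201, a lincRNA of the same strand. Mir101b (ENSMUSG00000065556.1) has 97 bases and lies on the plus strand at chr19:29135279-29135375. It falls in the intron after exon 8 of the 9 exons of Rcl1, a protein-coding gene of the same strand whose product acts in ribosomal RNA processing. Neither has a close miRNA neighbour. The nearest miRNA genes of Mir101a are Gm23366, 1689115 bases to the left, and Gm23064, 2124832 bases to the right, and those of Mir101b are Mir3084-1 at 4192976 bases and Gm24108 at 1126066 bases. All 4 of these neighbours lie on the opposite strand.

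The hairpins of Mir101a and Mir101b were identical at 69 of 99 aligned positions (69.7%). Their longest common stretch, aaagguacaguacugugaua, has 20 bases and begins before the 3p arm. GC content was 49.4% for Mir101a and 47.4% for Mir101b. The predicted folding energy was -47.0 kcal/mol for Mir101a and -39.6 kcal/mol for Mir101b. Per base this was -0.566 and -0.408 kcal/mol, both below the median of -0.369 over all 2202 hairpins, so both are predicted to fold more tightly than the median hairpin of the annotation.

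Mir101c, a further locus annotated under this name at chr9:3038669-3038743 on the minus strand, is no member, but its sequence bears on how reads of Mir101a are counted. Its mature miRNA is 19 bases long and is identical to bases 2 to 20 of miR-101a-3p. The Mir101c hairpin differs from the full miR-101a-3p by U1C and A21U. A read of 21 or 20 bases of miR-101a-3p therefore matches the Mir101a hairpin alone among annotated miRNA hairpins, whereas 1 of the 3 windows of 19 bases and 2 of the 4 windows of 18 bases also match Mir101c. Of miR-101b-3p, no window of 17 bases or more matched another hairpin. Multimapping reads were assigned to no gene, so the count of Mir101a may lack shortened reads, and how many was not tested. Mir101c itself had 0 counts in both libraries, but its whole mature sequence lies within the Mir101a hairpin and reads of it would be assigned to neither gene, so the 0 sets no limit on its level. The predicted fold of Mir101c was weaker than the median, at -0.215 kcal/mol per base.

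Mir101b was the higher of the pair in both libraries, and both genes were higher in replicate 2. The libraries held 3464837 sense miRNA counts in replicate 2 and 3024662 in replicate 1. Mir101a had 1645 counts in replicate 2, or 475 CPM with an exact 95% Clopper-Pearson interval of 452 to 498 (CPM, the sense count scaled to a total of 1000000 over miRNA genes), and 371 counts in replicate 1, or 123 CPM (110 to 136). Mir101b had 4055 counts in replicate 2, or 1170 CPM (1135 to 1207), and 1289 counts in replicate 1, or 426 CPM (403 to 450). Replicate 2 was the high library for both genes. For abundant miRNAs the counting intervals are narrow, so small differences pass them too. The ratio of Mir375, replicate 2 over replicate 1, was 1.11 (1.10 to 1.12). The intervals hold counting error alone and have no term for the spread between animals or preparations. Reads copied by PCR do not come from separate molecules, so the intervals may be too narrow even for counting error. A mature miRNA yields 1 read whatever the length of its hairpin, so CPM was compared between the genes without division by length.

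**Figure D1:**
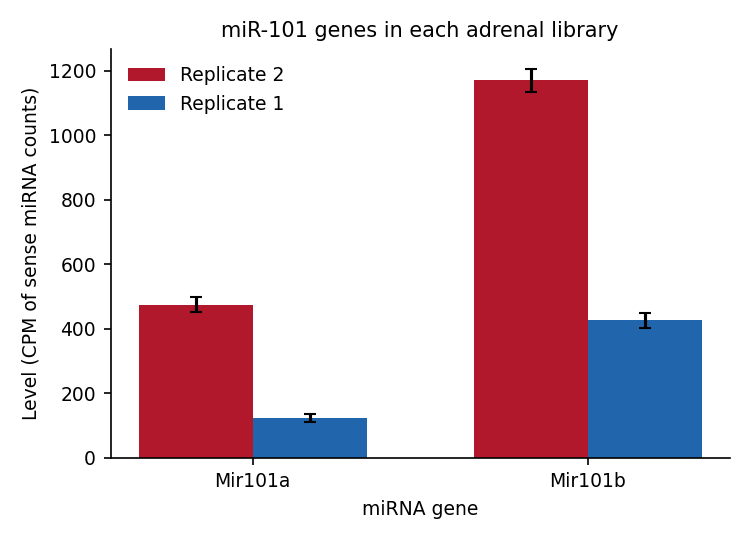
Levels of Mir101a and Mir101b in each library, in CPM of sense miRNA counts on a linear axis from 0, with replicate 2 to the left of replicate 1. Bars are single libraries and error bars are exact 95% counting intervals. Mir101b exceeds Mir101a in both libraries, and replicate 2 exceeds replicate 1 for both genes.

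Over both libraries Mir101a averaged 299 ± 249 CPM and Mir101b 798 ± 526 CPM (SD, n = 2). The SD is thus of the size of the mean. Neither gene was among the most abundant of the gland. Mir101a stood at rank 113 of 2202 in replicate 2 and at rank 175 in replicate 1, and Mir101b at rank 72 and rank 120. Summed, the 2 genes made up 0.165% of miRNA counts in replicate 2 and 0.0549% in replicate 1. Neither gene had a count on the opposite strand.

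The share of Mir101a within the pair was not the same in the libraries. It was 28.9% in replicate 2 (exact interval 27.7 to 30.1) and 22.3% in replicate 1 (20.4 to 24.4). Put as a ratio of counts, Mir101b was 2.47 times Mir101a in replicate 2 (2.33 to 2.61) and 3.47 times in replicate 1 (3.09 to 3.91). The intervals of the libraries do not overlap, but with 1 library on each side they say nothing of the spread between animals. Shortened reads of miR-101a-3p that also match Mir101c are assigned to no gene, which can lower Mir101a alone. How far this moves the share or the ratio in either library was not tested.

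Replicate 2 exceeded replicate 1 by 3.87-fold for Mir101a (exact conditional interval 3.46 to 4.34) and by 2.75-fold for Mir101b (2.58 to 2.93). Summed over both genes the ratio was 3.00 (2.84 to 3.17). On the log2 scale the ratios were 1.95 for Mir101a and 1.46 for Mir101b, against a median of 0.0006 over the 189 miRNA genes with a mean of 100 CPM or more. Of these 189 genes, 15 were 2-fold or more higher in replicate 2 (7.94%) and 13 were 2-fold or more lower (6.88%). Counting reads of either strand gave 10 higher and 16 lower among 184 genes, and the median log2 ratio was -0.15. That count lacks most reads of some abundant genes. Its totals, 2670655 in replicate 2 and 2122450 in replicate 1, were below the sense totals. In replicate 2, Mir126a had 12 counts by it and 328230 sense counts. Both members were among the 15, at place 4 for Mir101a and place 8 for Mir101b, and Mir101a had been picked out for this ratio, so nothing is read from the count. The genes ahead of Mir101a were Mir122, Mir192 and Mir301. With 2 libraries of 1 group there is no contrast of conditions and no test was made. In bulk tissue, fewer cells of a type and less RNA per cell cannot be told apart.

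The spread between the libraries over the 189 genes was a biological coefficient of variation of 36.3% (edgeR, intercept-only model). Among the 109 genes from 150 to 1586 CPM, which brackets the members, the median difference between the libraries was 1.27-fold in either direction. Of these 109 genes, 9 were 2-fold or more higher and 11 lower in replicate 2. Both members are among the 9, and Mir101a had been picked out for this ratio. Nothing is therefore read from their place above that median.

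**Figure D2:**
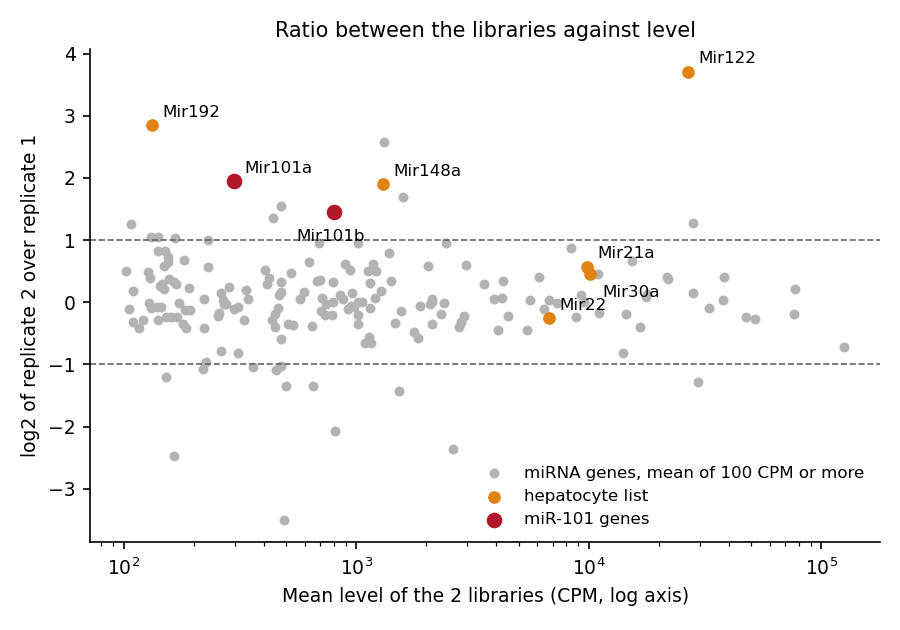
Log2 of the CPM ratio, replicate 2 over replicate 1, against the mean CPM of both libraries (log axis) for the 189 miRNA genes with a mean of 100 CPM or more. Dashed lines mark 2-fold differences, red points are the miR-101 genes and orange points the hepatocyte list. Mir101a at 1.95 and Mir101b at 1.46 lie above the upper line, as do Mir122, Mir192 and Mir148a.

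Some miRNAs of hepatocytes were higher in replicate 2, as the members were. The hepatocyte list, written with several of these ratios known, had 8 of 9 genes in the files. None of the 8 was without a count. Its defining gene Mir122, the main miRNA of hepatocytes, was at 49474 CPM in replicate 2 and 3786 CPM in replicate 1. Of the 6 list genes at a mean of 100 CPM or more, 3 were 2-fold or more higher in replicate 2 and 0 lower, with a median log2 ratio of 1.24, against 7.94% higher and 6.88% lower over the 189 genes. Those 3 were Mir122, Mir192 and Mir148a, a miRNA that is abundant in liver but not confined to it. Summed, the list reached 81480 CPM in replicate 2 and 28137 CPM in replicate 1. Mir30a at 1.38-fold and Mir21a at 1.49-fold were below 2-fold, and Mir22 was at 0.838-fold. With Mir122 taken out of the totals, the ratio was 4.06 for Mir101a and 2.88 for Mir101b. The part of liver RNA in the ratios of the miR-101 genes was not tested.

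Part of the kidney and epithelial list was higher in replicate 2 too, but Mir192, Mir194-1 and Mir194-2 are also in the hepatocyte list. Of its 3 genes at a mean of 100 CPM or more, 1 was 2-fold or more higher in replicate 2 and 0 lower. Over the 189 genes at that level, 7.94% were higher and 6.88% lower. Of its 12 genes, all with 10 counts or more in the libraries together, 6 were 2-fold or more higher in replicate 2 and 0 lower, with a median log2 ratio of 1.24. Over the 413 genes with as many counts, 11.4% were 2-fold or more higher and 10.4% lower. The 6 were Mir192 at 7.22-fold, Mir200a at 6.11-fold, Mir200b at 5.72-fold, Mir205 at 4.36-fold, Mir429 at 3.68-fold and Mir194-2 at 2.91-fold, whereas Mir200c was at 0.522-fold. Its defining gene Mir192 was at 231 CPM in replicate 2 and 32.1 CPM in replicate 1. The sum of the list, most of it Mir10a, was 40478 CPM in replicate 2 and 38326 CPM in replicate 1.

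Other lists did not share one direction. The sum of the red blood cell list was lower in replicate 2, at 19202 CPM against 43959 CPM in replicate 1. In it Mir451a was at 0.409-fold and Mir486 at 0.639-fold, whereas Mir144 was level at 0.980-fold (0.948 to 1.01). The white blood cell list was at 2610 CPM in replicate 2 and 4878 CPM in replicate 1, with Mir142 at 0.371-fold and Mir155 at 0.488-fold, while Mir223 was at 2.88-fold (2.28 to 3.67). The endothelial list, nearly all Mir126a, was at 94739 CPM in replicate 2 and 155648 CPM in replicate 1. Its other gene, Mir126b, had 24 counts in replicate 2 and 7 in replicate 1 and was higher in replicate 2. Neuroendocrine miRNAs of the medulla were close, at 34282 CPM in replicate 2 and 31136 CPM in replicate 1. Their defining gene Mir375, at 29592 CPM in replicate 2 and 26615 CPM in replicate 1, is a marker of neuroendocrine cells. The lists hold no marker of the cortex. The mesenchymal list was at 45497 CPM in replicate 2 and 53093 CPM in replicate 1. The neuronal list stood at 1400 CPM in replicate 2 and 1357 CPM in replicate 1, with 3 of 11 genes without a count. Of its 5 genes with 10 counts or more in the libraries together, 2 were 2-fold or more higher and 0 lower. Over the 413 genes with as many counts, 11.4% were higher and 10.4% lower. The 2 were Mir128-1 at 2.23-fold and Mir128-2 at 2.40-fold, while Mir137, Mir132 and Mir212 were at 1.08-fold, 0.875-fold and 0.827-fold. The muscle list stood at 11.5 CPM in replicate 2 and 8.60 CPM in replicate 1, with 3 of 7 genes without a count. The part of these cell types in the result was not tested.

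The 6 bases that the seeds of miR-101a-3p and miR-101b-3p have in common, ACAGUA, were searched in 1738 mature miRNAs of RefSeq at first base 1, 2 or 3. They were found in 7 mature miRNA entries of 7 genes. Besides the miR-101 loci these were Mir144 and the miR-199 genes, and the core is in capitals here.
mmu-miR-144-3p: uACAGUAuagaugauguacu
mmu-miR-199a-3p: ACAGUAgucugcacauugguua
In miR-144-3p the core stands at base 2, as in miR-101a-3p, with the seed ACAGUAU in miR-144-3p and ACAGUAC in miR-101a-3p. In miR-199a-3p and miR-199b-3p, which are identical, it starts at base 1 and so lies partly outside the seed.

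Mir144, a miRNA of red blood cells, was the most abundant of these genes by assigned counts. It had 2053 CPM in replicate 2 and 2093 CPM in replicate 1, a ratio of 0.980 (0.948 to 1.01). Its level did not differ beyond counting error, whereas both miR-101 genes were higher in replicate 2. Mir199b, a miRNA of mesenchymal cells, was at 56.3 CPM in replicate 2 and 107 CPM in replicate 1, a ratio of 0.527 (0.439 to 0.631). Mir199a-2 was at 17.6 CPM in replicate 2 and 16.2 CPM in replicate 1, and Mir199a-1 had 1 count in replicate 2 and 2 counts in replicate 1. The miR-199 genes yield the same 3p sequence, so reads of it could not be assigned to 1 locus and these counts may be underestimates. The counts that remain may come from other parts of the hairpins. The ratio of Mir199b therefore need not be that of the 3p arm, which holds the core. Of the 7 genes, Mir144, Mir101b and Mir101a had a mean of 100 CPM or more by assigned counts.

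**Figure D3:**
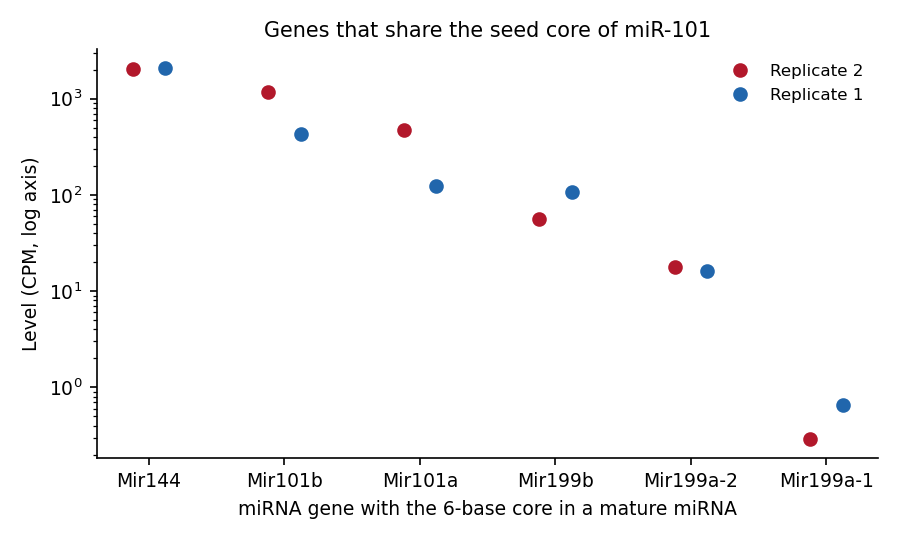
Level in CPM (log axis) of the 6 genes with a count whose mature miRNA holds the core at base 1, 2 or 3, with replicate 2 to the left of replicate 1. Points are single libraries, and Mir101c, which had no count, is not drawn. Mir144 is level between the libraries, Mir101b and Mir101a are higher in replicate 2 and Mir199b is lower. The counts of the miR-199 genes may lack reads of the 3p arm that holds the core.

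Other miRNAs reported to target Ezh2 were taken as a list of 24 genes, of which 23 were matched by symbol. Mir92a-1 was not found under that symbol. Mir92-1 on chromosome 14, by its name likely the same gene, was at 1269 CPM in replicate 2 and 1022 CPM in replicate 1. It is left out of the list values here. Of the 15 matched genes at a mean of 100 CPM or more, 1 was 2-fold or more higher in replicate 2 and 1 was lower, with a median log2 ratio of 0.13. That is close to the median of 0.0006 over the 189 genes, which held 7.94% higher and 6.88% lower. The higher one was Mir26b, the miR-26 gene of highest assigned count, at 39787 CPM in replicate 2 and 16497 CPM in replicate 1 (2.41-fold, interval 2.39 to 2.44). The lower one was Mir138-1, at 50.2 CPM in replicate 2 and 279 CPM in replicate 1 (0.180-fold, 0.152 to 0.212). Both were named after their values were seen.

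By level the list was led by let-7 genes, regulators of developmental timing. Mirlet7g averaged 76270 ± 7073 CPM, Mirlet7i 51891 ± 6620 CPM and Mirlet7b 38194 ± 7524 CPM (SD, n = 2). Mir26b, Mirlet7d and Mir30d followed at 28142 ± 16469, 17874 ± 1135 and 9242 ± 555 CPM (SD, n = 2). The matched genes of the list, without Mir92-1, held 24.6% of miRNA counts in replicate 2 and 22.8% in replicate 1. The miR-101 pair, at 0.165% and 0.0549% in the same libraries, was thus a small part of the miRNAs that have been tied to Ezh2. Mir124a-2 and Mir124a-3 had no count in either library, but their hairpins share a 20-base stretch with other miRNA genes. So do those of Mir26a-1, Mir26a-2, Mir138-1, Mir138-2, Mirlet7a-1, Mirlet7c-1 and Mir124a-1, whose counts may thus lack multimapping reads. The order and the share of the list hold for assigned reads.

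The sites that the members could pair with were searched in the longest annotated 3′ UTR of each of 20996 protein-coding genes, on the strand of the transcript. The letters were GTACTGT, the complement of the miR-101a-3p seed, and TACTGTA, that of the RefSeq miR-101b-3p seed. They overlap by 6 bases, and where both are met the 8-base match GTACTGTA was counted once. A match was found in 17.3% of all genes, with 2 or more in 3.82% and an 8-base match in 2.92%. Messenger RNA was not measured here, so these matches describe sequence and not regulation.

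Of 11 PRC2 genes, 4 had a match and 3 of them an 8-base match. Ezh2 had 2 matches in a 3′ UTR of 402 bases. Among 942 genes with a 3′ UTR within 10% of that length, 4.67% had a match and Ezh2 was the 1 gene with 2 or more (0.106%). Eed, which binds the H3K27me3 mark, had 1 match in 410 bases, where 5.40% of genes of like length had one. Rbbp7, a histone-binding subunit, had 1 match in 676 bases, where 9.44% of genes of like length had one. Aebp2, an accessory subunit, had 2 matches in 4695 bases, and 16.7% of genes of like length had as many. Suz12, Ezh1, Rbbp4, Jarid2, Mtf2, Phf1 and Phf19 had none of these letters in the window searched. The matches are shown on the transcript strand with 20 bases before and 1 base after them, and capitals mark the match.
Ezh2, chr6:47530475-47530502, minus strand: cttagcttcaggaaccttgaGTACTGTg
Ezh2, chr6:47530419-47530447, minus strand: tgaaattctgaatttgcaaaGTACTGTAa
Eed, chr7:89954778-89954805, minus strand: tcacattgtttacattctttGTACTGTc
Rbbp7, chrX:162778550-162778578, plus strand: actttcaagtgagctgttgcGTACTGTAt
Aebp2, chr6:140651781-140651809, plus strand: cagaaatgtgtaacttgtcaGTACTGTAt
Aebp2, chr6:140651872-140651900, plus strand: atatttttctattatgaaatGTACTGTAg

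The matches of Ezh2 lie close together, at bases 59 to 65 and 114 to 121 after the stop codon. The first matches the seed of miR-101a-3p and not that of the RefSeq form of miR-101b-3p, while the second matches both. The single match of Eed is likewise of the miR-101a-3p seed alone. Those of Rbbp7 and Aebp2 match both seeds.

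**Figure D4:**
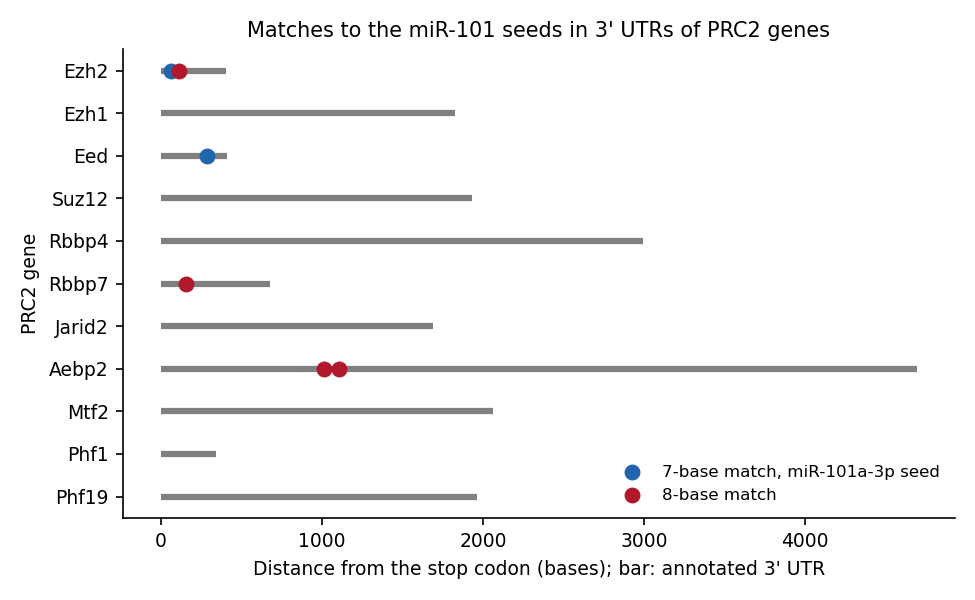
Matches to the miR-101 seeds in the longest annotated 3′ UTR of 11 PRC2 genes, against the distance from the stop codon in bases. Grey bars are the 3′ UTRs, red points 8-base matches and blue points 7-base matches to the miR-101a-3p seed. Ezh2 holds 2 matches within its first 121 bases, and 7 genes hold none.

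Of 11 other genes listed as miR-101 targets elsewhere, 10 had a match and 6 an 8-base match. Such genes were in part found through these very sites, so the count is no independent evidence. Over all genes 17.3% had a match and 2.92% an 8-base match. The median 3′ UTR was 2445 bases in this list and 962 bases over all genes, and longer ones hold more matches. The share with a match among genes of like length ran from 6.26% for Stmn1 to 65.2% for Atxn1. Mycn, a transcription factor of the MYC family, had 3 matches in 913 bases, 2 of them of 8 bases. Fos, Ptgs2, Rac1 and Rab5a had 1 match each, of 8 bases. Mcl1, an inhibitor of apoptosis, and Stmn1, a microtubule regulator, had 1 match each, to the miR-101b-3p seed and not the miR-101a-3p seed. The letters of that match, TACTGTA, also pair with bases 1 to 7 of miR-101a-3p. Dnmt3a, a DNA methyltransferase, had 3 matches of 7 bases. Atxn1 had 4 matches, a pair of which overlap, and Ap1g1 had 2. Atg4d had none.

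The miRNA genes nearest to each member were found by the distance between their log2(CPM + 1) values over the 2 libraries. Nearest to Mir101a were Mir668, Mir188, Mir299a, Mir494 and Mir374b, at distances of 0.70 to 1.11 log2 units. Nearest to Mir101b were Mir27a, Mir369, Mir203, Mir487b and Mirlet7c-2, at 0.39 to 0.78. Mir27a was at 914 CPM in replicate 2 and 474 CPM in replicate 1, and Mir668 at 308 CPM in replicate 2 and 153 CPM in replicate 1. Of these 10 genes, 6 lie on chromosome 12 and 2 on the X chromosome, where 23.9% and 9.17% of the 109 genes of like level lie. On chromosome 12, Mir494, Mir487b and Mir369 lie close together, between bases 109715318 and 109743496. The 6 genes are thus not separate loci, and nothing is read from their number. The measure rests on 2 libraries and mostly finds genes of like level.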

How the data were processed

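Short RNA was sequenced as 2 libraries of 1 group, numbered as biological replicates per the labels. The authors deposited raw counts per miRNA gene, and their notes name mm10 and GENCODE M21. The sources used here name no software for alignment or counting. Each file has 2202 genes, all matched in GENCODE M21, 4 summary rows and 3 columns of counts, which from the values are either strand, sense and opposite strand. The sense column (column 3 of the file) was used. The summary rows, 59.1% of reads in replicate 2 and 57.8% in replicate 1, were left out of totals. Multimapping reads made up 29.4% and 27.5%.

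Counts were scaled to CPM by the total over miRNA genes. Shares have exact Clopper-Pearson intervals and ratios exact conditional intervals, at 95% and for counting error alone. With 1 group of 2 libraries no test of levels was made, and the SD may be partly technical. Mature sequences came from RefSeq (GRCm38.p6), hairpins and 3′ UTRs from GENCODE M21 transcripts, and folding energies from RNAfold 2.7.2. The members, lists and alternatives were chosen with earlier results of these data known. Named beside the members were genes whose mature miRNA holds the seed core, neighbours, the 5 genes nearest in level and fixed lists. The alternatives were unstranded counts, edgeR's TMM, DESeq2's size factors, totals without Mir122, each library alone, other floors, another fold, and removal of genes that share a 20-base stretch. In simulated libraries, some genes were changed by a known fold and counting error was the only noise. There, 96.0% of the intervals of 299 genes held the true ratio. The simulation draws counts as the intervals assume, so it checks the computation and not how they fit real replicates. R 4.3.3 ran edgeR 4.0.16 and DESeq2 1.42.0, and Python 3.11.15 ran SciPy 1.17.1, pandas 2.3.3, NumPy 2.4.6 and matplotlib 3.10.9.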

Additional observations from a re-analysis of the deposited data

Results flagged for a closer look

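Some reads lay in classes that no comparison here used. In replicate 2, 29.4% of reads were multimapping and 6.65% fell in no miRNA gene. In replicate 1, 27.5% were multimapping and 6.79% fell in no miRNA gene. How many of them came from the miR-101 loci was not tested. With 2 libraries no search for an outlying sample was made.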

How the results depend on the processing

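Of 32 values under alternatives that keep both libraries, 25 stayed within the counting interval, the SD or 1.5 times the count, 7 moved and 0 reversed. Levels were judged against an SD of the size of the mean. With unstranded counts, 395 CPM for Mir101a and 1063 CPM for Mir101b thus stayed within it. The ratio of Mir101b to Mir101a could not change there, because both genes kept the same counts. With unstranded counts the ratio of Mir101b, replicate 2 over replicate 1, was 2.50, below its interval, because the total over miRNA genes changed while the counts of the gene did not. The ratio of Mir101a ranged from 3.52 to 4.06 and that of Mir101b from 2.50 to 2.88 over 4 alternatives. Each library alone gave 123 to 475 CPM for Mir101a and 426 to 1170 CPM for Mir101b, against means of 299 and 798 CPM. The number of genes past the fold and higher in replicate 2 was 26 of 299 (8.70%) with a floor of 10 mean CPM, 47 of 413 (11.4%) with a floor of 10 counts and 30 of 189 (15.9%) at 1.5-fold. The number lower was 21, 43 and 21 in the same order. Unstranded counts, which lack most reads of some abundant genes such as Mir126a, gave 10 higher and 16 lower of 184. No paired analysis was possible because there is 1 group. At 371 counts in replicate 1, depth left an interval of 110 to 136 CPM for Mir101a.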
